A study of Homo sapiens with 12 samples.

Results

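Interferon-stimulated genes are the genes that cells switch on when an interferon, a secreted signal of infection, binds its receptor. The list described here holds 37 of them, taken by name. Earlier results of these data were known when the genes were chosen. Each was read by the probe sets whose array annotation gives that symbol alone, and by the brightest one where there were several. Of the 37 genes, 36 had such a probe set, out of 11963 genes on the array, and STAT2 had none. Of the 36, 30 were bright enough to be tested and 6 were not.

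The cells were RD, an established line from an embryonal rhabdomyosarcoma, a childhood tumour of skeletal muscle character. They had been transduced with PAX3-FKHR-ER or with the empty vector pK1. PAX3-FKHR is the fusion transcription factor of alveolar rhabdomyosarcoma, and in PAX3-FKHR-ER it carries the modified ligand-binding domain of the estrogen receptor, which 4-hydroxytamoxifen (4-OHT) activates. Total RNA was read on 12 Affymetrix arrays of the HG-U133 design, 3 for each of 4 groups: PAX3-FKHR-ER without 4-OHT, PAX3-FKHR-ER with 30 nM 4-OHT for 24 h, pK1 without 4-OHT, and pK1 with 30 nM 4-OHT for 24 h. The design text names 3 populations of each construct, each cultured without and with 4-OHT. Untransduced RD cells are not among the groups. The design asks which genes the fusion regulates, with pK1 showing what 4-OHT and transduction do without it.

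Interferons of type I act through their receptor and its kinases on STAT proteins, which join IRF9 and enter the nucleus. The complex binds the interferon-stimulated response element (ISRE) in the promoters of its target genes. Interferon gamma acts through a STAT pair that binds another sequence, the gamma-activated site (GAS). The products act against viruses at many steps: they block entry at membranes, bind or cut viral RNA, stop translation, and amplify the signal itself. Many tumour cell lines express a part of this set without added interferon.

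Promoter letters were available from RefSeq (GRCh38.p14) for 27 of the 37 genes, as windows of 300 bases from 250 before to 50 after each start. The core of the ISRE, written GAAANNGAAA and searched on both strands, was present in the windows of 19 of the 27 genes. It was present in those of 4.38% of the 27305 genes in the same table. The GAS core, TTCNNNGAA, which reads the same on both strands and may overlap an ISRE, was in 8 of the 27 and in 9.38% of all genes. The sequences of IFIT1, ISG15, IFI6, IFITM1 and TRIM14 hold the matches with the bases around them and need not reach the start site, and those of IFI16 and IRF9 are the 150 bases before it. They are shown because these genes carry the results that follow. Capitals mark ISRE matches, overlapping ones run together, and each sequence reads 5′ to 3′ on the strand of its gene.
IFIT1, plus strand, chr10:89392447-89392589: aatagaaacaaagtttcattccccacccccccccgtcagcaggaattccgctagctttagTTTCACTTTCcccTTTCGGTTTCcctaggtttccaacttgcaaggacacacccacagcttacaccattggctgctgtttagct
ISG15, plus strand, chr1:1013324-1013459: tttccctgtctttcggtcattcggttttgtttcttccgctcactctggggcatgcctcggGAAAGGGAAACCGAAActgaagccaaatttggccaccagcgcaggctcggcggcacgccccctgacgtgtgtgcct
IFI6, minus strand, chr1:27672216-27672408: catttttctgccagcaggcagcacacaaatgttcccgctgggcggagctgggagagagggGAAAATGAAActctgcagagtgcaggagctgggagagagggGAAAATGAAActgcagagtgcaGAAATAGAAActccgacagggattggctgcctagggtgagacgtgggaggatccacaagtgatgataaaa
IFITM1, plus strand, chr11:313940-314043: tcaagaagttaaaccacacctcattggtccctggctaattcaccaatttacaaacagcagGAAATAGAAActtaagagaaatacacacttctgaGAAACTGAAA
TRIM14, minus strand, chr9:98119223-98119308: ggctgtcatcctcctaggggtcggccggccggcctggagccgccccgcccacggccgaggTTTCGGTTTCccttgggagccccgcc
IFI16, plus strand, chr1:159009757-159009906: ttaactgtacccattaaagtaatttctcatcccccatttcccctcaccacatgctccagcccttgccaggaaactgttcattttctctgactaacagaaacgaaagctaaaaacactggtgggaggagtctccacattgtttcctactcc
IRF9, plus strand, chr14:24161115-24161264: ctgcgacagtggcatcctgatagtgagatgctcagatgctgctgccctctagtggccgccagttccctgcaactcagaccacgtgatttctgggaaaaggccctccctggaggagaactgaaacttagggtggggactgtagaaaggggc
IFIT1 and ISG15 each held 2 matches, the first beginning 116 and 113 bases before the start, and IFI6 held 3. IFITM1 held 2, beginning 40 bases before the start, and TRIM14 held 1. IFI16 and IRF9 had none in any window in the table, which says only that these letters were not there. A match is a description of the sequence and not a measured site of binding.

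The arrays of replicate 1 stood apart from the other 8. Pearson r of the log2 signals over tested probe sets was 0.957 to 0.982 among the 4 arrays of replicate 1 and 0.815 to 0.869 between them and the rest, which correlated at 0.867 to 0.982. Control probe sets for poly-A RNA that is added before labelling had medians of 2.33 to 6.17 on the replicate 1 arrays and 92.8 to 251 on the others. FGFR4, a known target of the fusion, did not separate the constructs in replicate 1 without 4-OHT, at 509 in PAX3-FKHR-ER and 551 in pK1, while it read 479 and 483 against 89.8 and 190.5 in replicates 2 and 3. FOXO1, part of the fusion, read 142 against 214 in replicate 1 and 146 and 124 against 52.1 and 36.1 in replicates 2 and 3. Directions from all 12 arrays therefore rest on the labels of replicate 1, and results from replicates 2 and 3 are given beside them. Of 9 markers of the muscle lineage all had a probe set, and their summed signal lay between 661 and 5426 on the 12 arrays, with both ends of the range reached by replicate 2 arrays. The summed signal of the 8 leukocyte markers with a probe set was 344 to 526 in PAX3-FKHR-ER without and 307 to 517 with 4-OHT, and 268 to 574 in pK1 without and 292 to 394 with it. Of these 8 leukocyte markers, 4 were bright enough to be tested. Their means over the 12 arrays were 145 for CD53, 70.3 for ITGAM, 62.5 for FCER1G and 58 for CD3E. Among the dimmer ones, PTPRC read at most 23.5 and LYZ at most 2.39. The 2 dendritic cell markers with a probe set summed to 7.26 to 41.5 and the 3 endothelial ones to 18.8 to 105.

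Across the 12 arrays the interferon-stimulated genes were highest on the pK1 arrays of replicate 3, and they were low on the arrays of replicate 1. With each gene set against its own mean over the arrays, the median of the 30 tested genes was 1.00 on pK1 replicate 3 without 4-OHT and 1.05 with it, on the log2 scale, while the median of all 8124 tested genes was 0.0010 and -0.016 there. On the 4 arrays of replicate 1 the median of the 30 genes lay between -0.47 and -0.14, and that of all genes between -0.04 and 0.07. On one of the pK1 arrays of replicate 3, 22 of the 30 genes had their highest signal, as did 12.2% of all genes. On one of the replicate 1 arrays, 16 of the 30 had their lowest, as did 34.5% of all genes. In this and every later result from bulk cultures, less RNA in each cell and fewer cells with that RNA cannot be told apart.

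**Figure D1:**
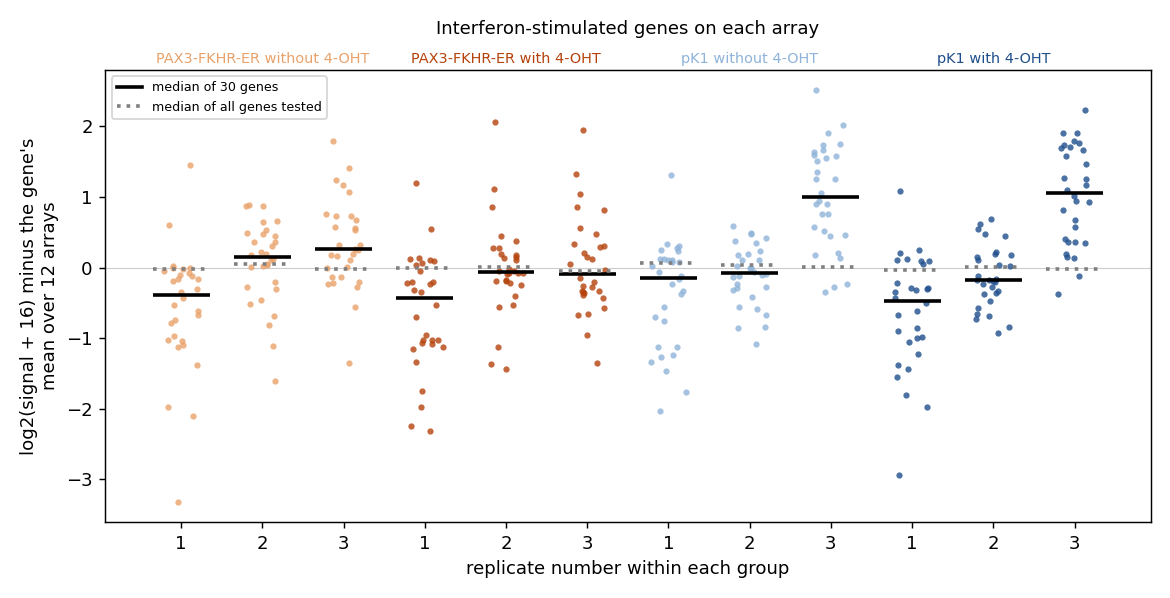
Log2(signal + 16) of each of the 30 tested interferon-stimulated genes (points) minus that gene's mean over 12 arrays, by array; black lines are the medians of the 30 genes and dotted lines those of all 8124 tested genes. The black lines stand at 1.00 and 1.05 on the pK1 arrays of replicate 3 and between -0.47 and 0.26 on the others, while the dotted lines stay near 0.

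The pK1 arrays of replicate 3 differed from those of replicate 2 by a median of 1.07 without 4-OHT and 1.10 with it (log2, 1 array against 1, no test). Without 4-OHT 25 of the 30 genes were higher, against 47.8% of all genes, and 16 were more than 2-fold higher, against 7.0%. With 4-OHT 28 of the 30 were higher, against 48.2% of all genes, and 17 were more than 2-fold higher, against 7.9%. IRF7, which passed the signal filter only through the pK1 arrays of replicate 3, was among the higher genes without and with 4-OHT. IFIT3, which binds viral RNA together with IFIT1, read 194 and 225 in replicate 2 and 1185 and 978 in replicate 3. ISG15, a ubiquitin-like protein that is joined to other proteins, read 375 and 470.4 in replicate 2 and 1912 and 2096 in replicate 3. CCL5, a chemokine, read 56.9 and 53.1 in replicate 2 and 299 and 275 in replicate 3. ADAR, which edits double-stranded RNA, and GBP2, a GTPase induced most by interferon gamma, were not among them: GBP2 read 26.4 and 32.7 in replicate 2 and 25.3 and 24.6 in replicate 3. Muscle markers also differed between those arrays, with CHRNA1 at 344 and 245 in replicate 2 and at 1974 and 1949.8 in replicate 3. The part of such differences between cultures in the values of the interferon genes was not tested.

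Other genes of the pathway were read from lists of their own. Of 24 further interferon-stimulated genes that were tested, 17 were higher in pK1 replicate 3 than in replicate 2 without 4-OHT and 21 with it. The medians were 0.45 and 0.56, and 47.8% and 48.2% of all genes were higher. RSAD2, which makes a chain-terminating nucleotide, read 55.9 and 54.1 in replicate 2 and 166 and 223 in replicate 3, and HERC5, the ligase that attaches ISG15, read 348 and 426 against 851 and 1209. IFIH1, a sensor of double-stranded RNA, read 90.1 and 84.3 on the pK1 arrays of replicate 3 and at most 13.1 on the other 10, but it was too dim to be tested. The 6 tested sensors and adaptors as a list had 4 and 3 higher, with medians of 0.19 and -0.0098. The 8 tested interferons and receptors did not follow, with 3 of 8 higher and medians of -0.18 and -0.27. IFNB1, the interferon that non-immune cells commonly make first, read between 1.71 and 6.26 on the 12 arrays and was too dim to be tested. Of the tested interferons, IFNA17 read between 79.5 and 205, and the others were IFNA7 and IFNA14.

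**Figure D2:**
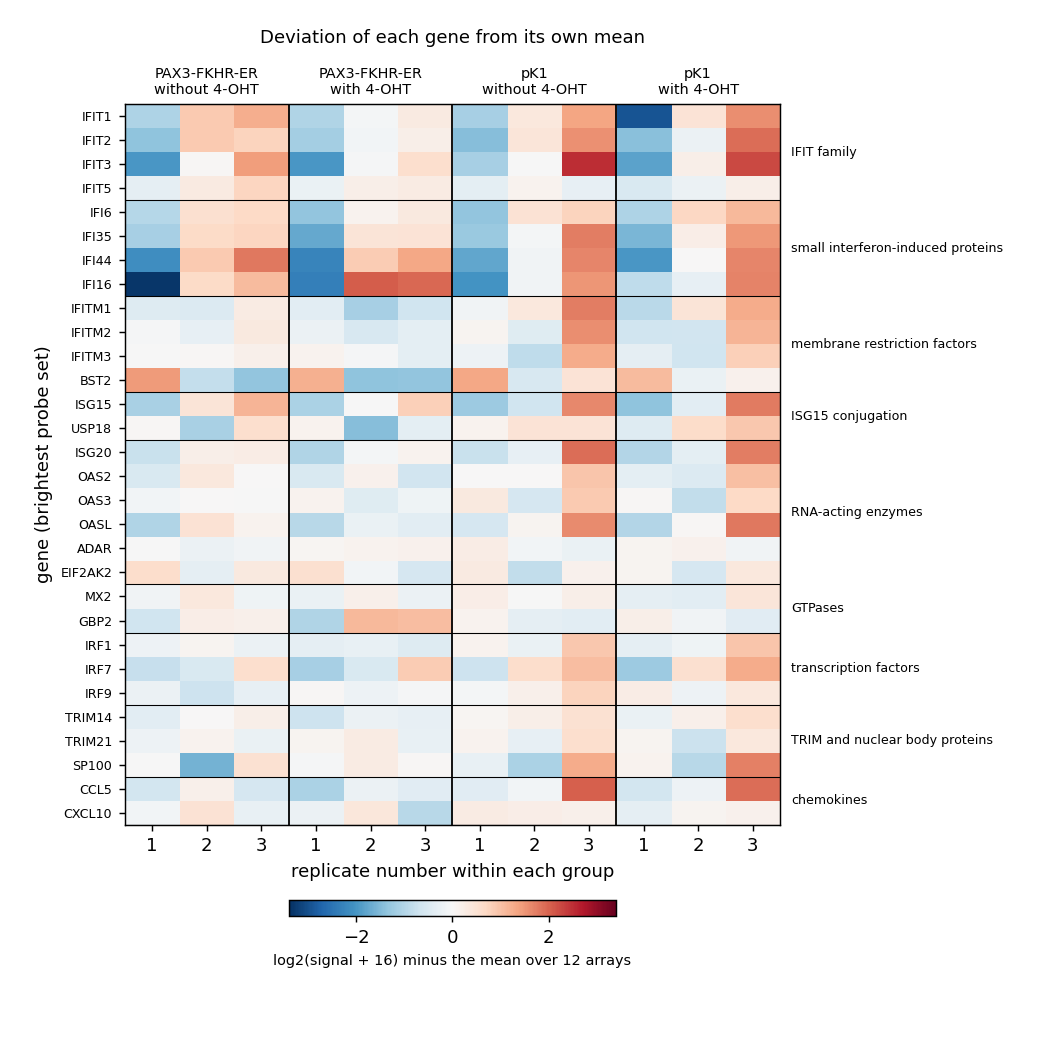
Deviation of each of the 30 tested genes (rows, grouped by role) from its own mean log2(signal + 16) over the 12 arrays (columns, by group and replicate); red is above the mean and blue below. The columns of pK1 replicate 3 are mostly red and those of replicate 1 mostly blue, with BST2 red in replicate 1 and ADAR nearly even.

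With 4-OHT in PAX3-FKHR-ER cells, most of these genes read lower in replicates 2 and 3, and a few read higher. In the fit to those 8 arrays with each pair of arrays (one construct and replicate, without and with 4-OHT) as a block, IFIT1 fell and IFI16 rose. They were 2 of the 30 tested genes, beside 1.4% of all 13329 probe sets called in that fit (0.795% higher and 0.6% lower). By sign, 23 of the 30 genes were negative and 7 positive, beside 3635 positive of all 8124 genes. The median was -0.29 for the 30 genes and -0.03 for all genes. Both calls exist only with the block: the same 8 arrays without it gave 0 called probe sets, with 270 at an unadjusted p under 0.05. The fit to all 12 arrays called 0 of the 30 genes and 0% of all probe sets, without or with pairs as a block. At an unadjusted p under 0.05 it held 62 probe sets without the block and 894 with it, among them 0 and 4 of the 30 genes. The paired fit to 8 arrays leaves 2 residual degrees of freedom, so its estimate of spread is largely shared across probe sets. It was also set up with the replicate 1 arrays already known to stand apart.

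IFIT1, which binds viral RNA with an altered cap and blocks its translation, read 118, 488 and 634 without 4-OHT and 119, 245 and 323 with it in replicates 1, 2 and 3 of PAX3-FKHR-ER. The groups overlapped over 3 replicates because replicate 1 was low in both, but in replicates 2 and 3 both treated arrays lay below both untreated ones. The mean of replicates 2 and 3 was 561 ± 103 (SD, n = 2) without and 284 ± 55.2 (SD, n = 2) with 4-OHT. The log2 change was -0.95 ± 0.12 (SE, limma adjusted p = 0.00892) in the paired fit to replicates 2 and 3 and -0.62 ± 1.04 (limma adjusted p = 1.00) over 12 arrays. In pK1, IFIT1 read 110.2, 339 and 682 without and 19.7, 365 and 805 with 4-OHT. Replicates 2 and 3 were slightly higher with 4-OHT there, by 0.17 ± 0.12 (limma adjusted p = 0.884), and the negative change over 12 arrays, -0.49, came from replicate 1. The change in PAX3-FKHR-ER minus that in pK1 was -1.12 ± 0.17 (limma adjusted p = 0.081) in replicates 2 and 3, and did not pass the threshold.

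IFI16, a nuclear sensor of DNA, went the other way. It read 11.6, 413 and 561 without 4-OHT and 39, 1126 and 1043 with it in PAX3-FKHR-ER, so by this probe set each treated array was above its untreated partner. The mean of replicates 2 and 3 was 487 ± 105 (SD, n = 2) without and 1085 ± 58.9 (SD, n = 2) with 4-OHT. The log2 change was 1.14 ± 0.16 (SE, limma adjusted p = 0.0121) in the paired fit and 1.10 ± 1.42 (limma adjusted p = 1.00) over 12 arrays, or -0.30 there without PAX3-FKHR-ER replicate 1 without 4-OHT. Both other IFI16 probe sets were also higher in pairs 2 and 3, by 1.25 and 1.04 for one and by 1.21 and 0.60 for the other, but in pair 1 they were at -0.07 and 0.07 against 1.00 for the brightest. In pK1 it read 51.5, 237 and 761 without and 135, 210.1 and 867 with 4-OHT, and the change in replicates 2 and 3 alone was -0.16 and 0.18. The difference between the constructs was 1.13 ± 0.22 (limma adjusted p = 0.14). The brightest IFI16 probe set may also match other transcripts, as its suffix on this array marks, and the same holds for those of IFITM2, IFITM3, EIF2AK2 and GBP1.

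**Figure D3:**
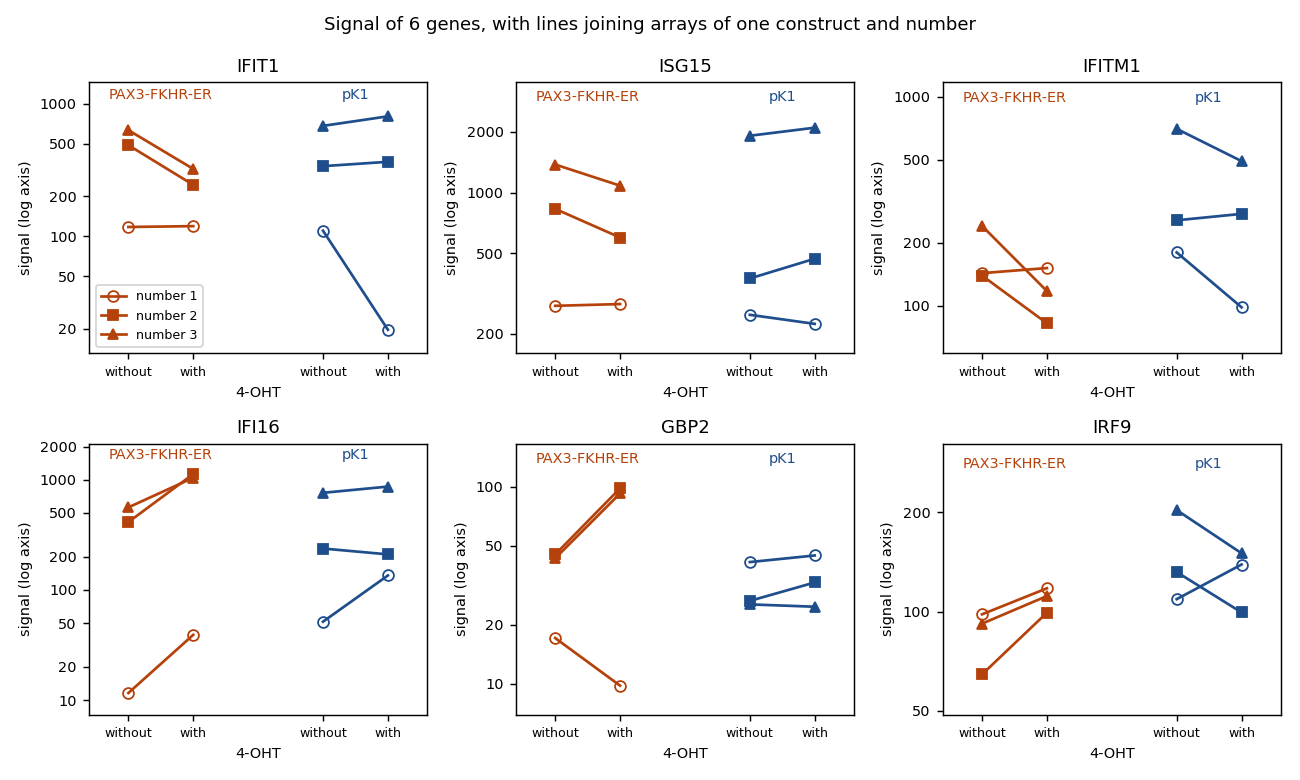
Signal (log axis) of 6 interferon-stimulated genes on every array; lines join the arrays without and with 4-OHT that share a construct and a replicate number. In PAX3-FKHR-ER replicates 2 and 3, IFIT1, ISG15 and IFITM1 go down and IFI16, GBP2 and IRF9 go up, while the lines of replicate 1 lie apart from them in most panels.

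The other 3 members of the IFIT family, which lie beside IFIT1 on chromosome 10 and share its RNA-binding repeats, were all lower with 4-OHT in pairs 2 and 3, and none passed the threshold. IFIT2 read 248 and 226 without and 119 and 149 with 4-OHT in replicates 2 and 3 (-0.76 ± 0.225, limma adjusted p = 0.192). IFIT3 read 201 and 547 without and 188 and 297 with it, and IFIT5 read 248 and 337 without and 227 and 244 with it. In pair 1 the 4 changes lay between -0.01 and 0.22. The median of the 4 genes was -0.62 in the paired fit to replicates 2 and 3 and -0.38 over 12 arrays. In pK1 it was 0.025 and -0.16, with 2 of the 4 genes negative in replicates 2 and 3 and all 4 over 12 arrays. In replicates 2 and 3 of pK1, IFIT2 read 174 and 401 without and 108 and 518 with 4-OHT, IFIT3 194 and 1185 without and 225 and 978 with it, and IFIT5 214 and 161 without and 172 and 229 with it.

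Of the membrane restriction factors, IFITM1 had the largest negative change. IFITM proteins stop the fusion of viral envelopes with cell membranes, and BST2, or tetherin, holds budding virus at the surface. IFITM1 read 143, 139 and 241 without and 151, 82.3 and 117 with 4-OHT in PAX3-FKHR-ER, a change of -0.80 ± 0.17 in replicates 2 and 3 (limma adjusted p = 0.0729) that missed the threshold. The pK1 arrays read 179.8, 256 and 702 without and 98.2, 275 and 492 with 4-OHT, lower in pairs 1 and 3, as were all 4 of these genes. IFITM2 was at -0.46 ± 0.13 (limma adjusted p = 0.172) and lower in all 3 pairs, but it was also lower in all 3 pK1 pairs, by 0.24 to 0.76. IFITM2 and IFITM3 are near-identical genes whose probe sets can read each other's RNA. BST2 read 155, 19.3 and 8.45 without and 127, 8.21 and 8.5 with 4-OHT, so in replicates 2 and 3 it lay near the bottom of the signal range.

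ISG15 read 275, 831 and 1377 without 4-OHT and 280.4, 599 and 1082 with it in PAX3-FKHR-ER. Its change in replicates 2 and 3 was -0.40 ± 0.12 (limma adjusted p = 0.182), and the spread between the replicates of a group was wider than the change. Over 12 arrays it was at -0.26 ± 0.93, and at 0.24 without PAX3-FKHR-ER replicate 3 without 4-OHT or 0.23 without replicate 1 with 4-OHT. In pK1 it read 248, 375 and 1912 without and 224, 470.4 and 2096 with 4-OHT, with replicate 3 far above the others in both groups. USP18, the protease that removes ISG15 and damps receptor signalling, read 13.8 and 79.9 without and 7.74 and 35.1 with 4-OHT in replicates 2 and 3 of PAX3-FKHR-ER, and was at -0.62 ± 0.25 (limma adjusted p = 0.38).

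Among the enzymes that act on RNA, OASL, an OAS-like protein without synthase activity, was at -0.58 ± 0.15 by its brightest probe set (limma adjusted p = 0.119), with 225 and 170.1 without against 133 and 118 with 4-OHT in replicates 2 and 3. Its second probe set, nearly as bright, was at -1.16 ± 0.15 (limma adjusted p = 0.00892) in the same fit and would have passed. It was singled out after its values were seen. OAS2 and OAS3, which make the activator of RNase L, ISG20, an exonuclease, and EIF2AK2, the kinase that stops translation on double-stranded RNA, were at -0.44, -0.28, -0.20 and -0.34, with limma adjusted p of 0.494 or more. ADAR was higher in all 3 pairs: it read 819, 715 and 750.4 without and 859.9, 891 and 913 with 4-OHT. These groups did not overlap, as was so for 2 of the 30 genes, ADAR and IRF9, beside 1.5% of all genes, but its change of 0.29 ± 0.11 did not pass (limma adjusted p = 0.343), and in pK1 it was at 0.19 ± 0.11.

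GBP2 read 17.1, 45.3 and 43.3 without and 9.81, 97.9 and 92.3 with 4-OHT in PAX3-FKHR-ER. It was thus higher with 4-OHT in replicates 2 and 3 (0.88 ± 0.24, limma adjusted p = 0.158) and lower in replicate 1, without passing the threshold. GBP2 passed the filter on low signals only through PAX3-FKHR-ER with 4-OHT, where it was high: its mean was 41.7 over 12 arrays and 33.4 over the other 9, below the limit of 36.7. Its tests are therefore a description. In pK1 it read 41.4, 26.4 and 25.3 without and 44.8, 32.7 and 24.6 with 4-OHT. GBP1, its neighbour on chromosome 1, was too dim to be tested but read 35.3 and 32.4 without and 85 and 147 with 4-OHT in replicates 2 and 3 of PAX3-FKHR-ER, and 14.4 and 44.8 without and 10.7 and 36.6 with it in pK1. MX2, a GTPase that traps viral capsids, lay between 55.3 and 91.7 on the 6 PAX3-FKHR-ER arrays and was lower with 4-OHT in all 3 pairs, by 0.06 to 0.18.

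IRF9, the DNA-binding partner of the STAT complex, read 98.1, 64.5 and 91.9 without and 118, 99.2 and 111 with 4-OHT in PAX3-FKHR-ER. Each treated array lay above all untreated ones, and the log2 change over 12 arrays was 0.33 ± 0.25 (limma adjusted p = 1.00), or 0.38 ± 0.17 in replicates 2 and 3 with the block (limma adjusted p = 0.44). In pK1 it read 109, 132 and 203 without and 139, 99.4 and 150.2 with 4-OHT, lower in pairs 2 and 3. The difference of the changes was 0.48 ± 0.36 over 12 arrays (limma adjusted p = 1.00) and 0.76 ± 0.24 in replicates 2 and 3 (limma adjusted p = 0.353). IRF1, which is itself induced by interferon gamma, read 87.2, 108 and 84 without and 76.9, 81.3 and 69.5 with 4-OHT in PAX3-FKHR-ER, with every treated array below all untreated ones, the 1 gene of the 30 to do so beside 1.77% of all genes, and with a change of -0.29 in replicates 2 and 3. IRF7, the amplifier of type I interferon production, spread from 6.04 to 70.4 on the PAX3-FKHR-ER arrays, and its pair changes were -0.33, 0.00 and 0.28.

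TRIM14, an adaptor of antiviral signalling at mitochondria, was lower with 4-OHT in each PAX3-FKHR-ER pair. It read 56.2, 77 and 89.2 without and 40.8, 64.5 and 60 with 4-OHT, a change of -0.34 ± 0.26 over 12 arrays (limma adjusted p = 1.00) and -0.34 ± 0.19 in replicates 2 and 3 with the block (limma adjusted p = 0.554). Both other TRIM14 probe sets that were tested were also lower in all 3 pairs. In pK1 it read 81.2, 89.3 and 116 without and 62.9, 88 and 120.5 with 4-OHT. TRIM21, a cytosolic antibody receptor, lay between 91 and 139.5 on the PAX3-FKHR-ER arrays, and SP100, a nuclear body protein, had pair changes of -0.02, 1.88 and -0.48, the middle one from a reading of 6.71 without 4-OHT. Of the chemokines, CXCL10 was lower in all 3 pairs, by 0.13, 0.11 and 0.71, and CCL5 by its brightest probe set in pairs 1 and 2. The other CCL5 probe set, which was also tested, had pair changes of 0.03, -1.33 and -0.62.

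Of the small interferon-induced proteins beside IFI16, the 3 that were tested were lower in replicates 2 and 3, and none passed the threshold. IFI6, a mitochondrial and membrane protein that restrains apoptosis, read 24.9, 101 and 113 without and 15.7, 71.8 and 85 with 4-OHT in PAX3-FKHR-ER, lower by 0.35 to 0.41 in each pair. In pK1 it read 15.9, 96.4 and 119 without and 22.7, 114 and 155 with 4-OHT, higher by 0.21 to 0.34 in each pair. In replicates 2 and 3 of PAX3-FKHR-ER, the change was -0.38 for IFI6 (limma adjusted p = 0.44), -0.23 for IFI35 (0.725) and -0.24 for IFI44 (0.582). IFI44 read 52.5 and 46.1 on the PAX3-FKHR-ER arrays of replicate 1 and 517 to 994 on those of replicates 2 and 3. IFI27 was too dim to be tested and went the other way, at 4.59, 13.3 and 14.2 without and 11.5, 22.5 and 25.6 with 4-OHT in PAX3-FKHR-ER, and at 5.8, 18 and 11.5 without and 5.06, 3.34 and 7.55 with it in pK1. Of the other genes that were too dim, IFI44L and TRIM22 read at most 24.3 on any array, MX1 lay between 14.1 and 43, and OAS1 between 7.71 and 89.7, with its highest signals on the pK1 arrays of replicate 3.

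**Figure D4:**
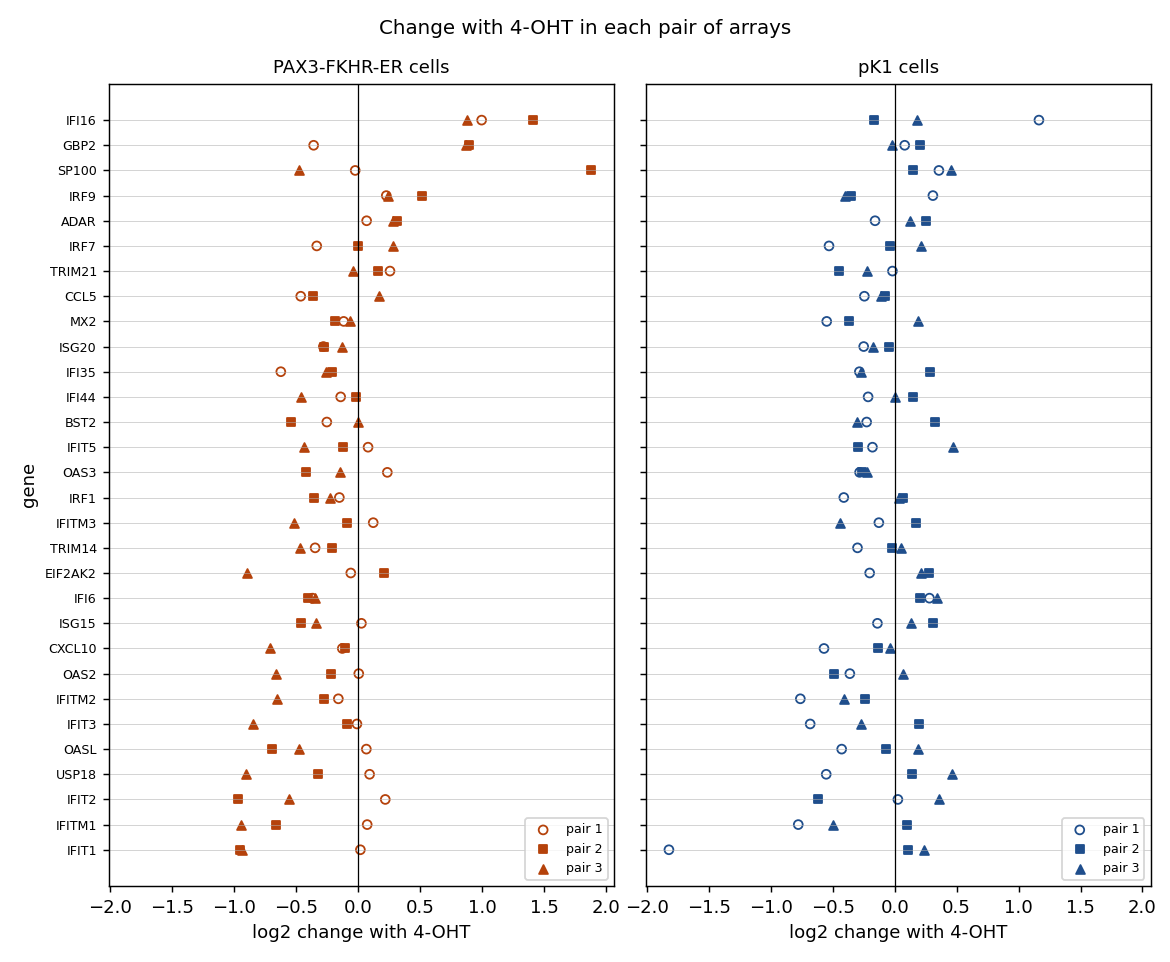
Log2 change with 4-OHT in each of the 3 pairs of arrays of PAX3-FKHR-ER (left) and pK1 cells (right) for the 30 tested genes, ordered by the mean of PAX3-FKHR-ER pairs 2 and 3. In PAX3-FKHR-ER 23 genes lie left of 0 in pair 2 and 23 in pair 3 against 16 in pair 1, and in pK1 24, 15 and 13 do so; of all tested genes 55.3%, 52.9% and 48.4% do in PAX3-FKHR-ER pairs 2, 3 and 1, and 60.02%, 50.04% and 49.6% in pK1 pairs 1, 2 and 3.

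Counted over the 3 pairs of PAX3-FKHR-ER, 10 of the 30 genes were lower with 4-OHT in every pair, beside 15.6% of all tested genes. The 6 of largest mean change were IFI6, IFI35, IFITM2, TRIM14, IFIT3 and CXCL10. For some of them pair 1 adds little. IFIT3 was at -0.0092 there, and IFI35 was dim, at 18.1 without and 6.14 with 4-OHT. IFI6 was dim there too, at 24.9 without and 15.7 with 4-OHT. IFI16 (by its brightest probe set), IRF9 and ADAR were higher in every pair, 3 of 30 beside 12.8% of all genes. In pK1 6 genes were lower in every pair, beside 17.7% of all genes, and 2 were higher, SP100 and IFI6, beside 12.7%. The members' share was thus above that of all genes for the lower direction in PAX3-FKHR-ER and near or below it in the rest. In pairs 2 and 3 alone, 20 of the 30 genes were lower in PAX3-FKHR-ER, beside 32.6% of all genes, and 4 were higher, beside 24.4%. GBP2 was among the 4 and passed the signal filter only through PAX3-FKHR-ER with 4-OHT. In pK1 the counts were 7 lower and 9 higher, beside 26.2% and 26.6% of all genes. The median change of the 30 genes was -0.016, -0.21 and -0.39 in pairs 1, 2 and 3 of PAX3-FKHR-ER and -0.25, 0.025 and 0.04 in those of pK1. That of all genes was 0.0086, -0.04 and -0.018 in the former and between -0.09 and 0.0027 in the latter. So the lower signals in PAX3-FKHR-ER stood in replicates 2 and 3, and those in pK1 in replicate 1.

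Promoter matches were set beside these directions as a description. Of the 20 genes lower in both pairs 2 and 3 of PAX3-FKHR-ER, 14 had a promoter window and 12 of those held an ISRE core, the exceptions being IRF1 and IFI35. Of the 4 higher genes, 3 had a window, those of IFI16, IRF9 and ADAR shown or searched above, and 0 held one. GBP2 had no window in the table, and it passed the signal filter only through PAX3-FKHR-ER with 4-OHT. These counts cover tested genes only. Of the genes too dim to be tested, GBP1 and IFI27 were also higher in both pairs, and each held an ISRE core. TRIM22 was higher too but had no window, and OAS1 was lower in both pairs and held no core. In the whole list, 19 of the 27 genes with a window held the core.

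In pK1 cells 4-OHT was followed by no call among these genes: 0 of 30, with 0% of probe sets called in all 12 arrays, without or with pairs as a block, and in replicates 2 and 3. At an unadjusted p under 0.05 limma held 0 of the 30 genes over 12 arrays and 1, IFITM2, in the paired fit to replicates 2 and 3. The genes of smallest p over 12 arrays were SP100, ADAR, IFI6 and IFI16 on the higher side and MX2, IFITM2, CXCL10 and TRIM21 on the lower. The median of the 30 genes was -0.10 over 12 arrays and 0.01 in replicates 2 and 3, and that of all genes was -0.03 and 0.0044. CXCL10 was the only one of the 30 whose pK1 groups did not overlap, at 72, 69.7 and 65.8 without and 43.3, 62 and 63.8 with 4-OHT, beside 3.52% of all genes lower and 0.886% higher.

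Whether 4-OHT acted differently in the constructs was tested as the difference of the changes. Of the 30 genes 0 passed, with 0% of probe sets called over 12 arrays and 0.0525% in replicates 2 and 3 with the block. In that last fit 23 of the 30 differences were negative, with a median of -0.26 against -0.03 for all genes. Of all 8124 genes, 3734 had a positive difference. After IFIT1 and IFI16 the smallest p of the 30 was that of ISG15, at -0.63 ± 0.17 (limma adjusted p = 0.252). Over 12 arrays the median was -0.07, and the genes of smallest p on the positive side were IRF9, TRIM21, ADAR and GBP2. GBP2 is only described, as it passed the signal filter through PAX3-FKHR-ER with 4-OHT alone. On the negative side over 12 arrays they were TRIM14, IFI6, EIF2AK2 and USP18. TRIM14 was at -0.25 ± 0.37 there (limma adjusted p = 1.00).

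Compared with pK1 without 4-OHT, PAX3-FKHR-ER cells had lower signals of most of these genes in replicates 1 and 3 and higher ones in replicate 2. Within replicates 1, 2 and 3 the median difference of the 30 genes was -0.19, 0.34 and -0.75, with 19, 8 and 24 of them negative (1 array against 1, no test). The median of all genes was -0.06, 0.03 and -0.02. The largest difference stood in replicate 3, where the median of the 30 genes on the pK1 array was 1.00 above their own means. Of the 30 genes 0 passed, with 0% of probe sets called over 12 arrays and 0.0075% in replicates 2 and 3 with the replicate number as a block. The median difference was -0.28 over 12 arrays and -0.18 in replicates 2 and 3. IRF9 was at -0.68 ± 0.25 (unadjusted p = 0.0206, limma adjusted p = 1.00) and was the 1 gene of the 30 whose groups did not overlap on the lower side, beside 3.35% of all genes. On the higher side there were 0, beside 2.62%. Next by p were IFITM1 (-0.86), CCL5 (-0.85) and TRIM14 (-0.31) on the lower side, and IFIT5 (0.41), EIF2AK2 (0.34), ISG15 (0.26) and IFI44 (0.26) on the higher, each with limma adjusted p = 1.00. IFIT1 was at 0.16 ± 1.04. In replicates 2 and 3 with the block the differences were -0.95 for IRF9, -1.15 for IFITM1, -1.15 for CCL5, -0.25 for TRIM14, 0.60 for IFIT5, 0.36 for EIF2AK2, 0.32 for ISG15, 0.56 for IFI44 and 0.20 for IFIT1, with limma adjusted p of 0.328 or more.

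With 4-OHT in both, the median difference of PAX3-FKHR-ER from pK1 was -0.27 over 12 arrays and -0.47 in replicates 2 and 3. Within replicates 1, 2 and 3 it was 0.021, 0.18 and -1.04, with 14, 13 and 26 of the 30 genes negative, so the lower signals stood in replicate 3. Of the 30 genes 0 passed, beside 0% of probe sets over 12 arrays and 0.158% in replicates 2 and 3 with the block. IFITM1 came nearest, with 82.3 and 117 in PAX3-FKHR-ER against 275 and 492 in pK1 in replicates 2 and 3, a difference of -1.75 ± 0.26 (limma adjusted p = 0.0827). In replicate 1 it read 151 against 98.2, the other way round. GBP2 was at 1.32 in the same fit, with 97.9 and 92.3 against 32.7 and 24.6. It passed the signal filter only through PAX3-FKHR-ER with 4-OHT, so its values here are a description. None of the 30 genes had groups that did not overlap over 3 replicates, beside 2.95% of all genes higher and 2.2% lower. Over 12 arrays GBP2 (a description, as above), IFIT5, TRIM21 and ADAR had the smallest p on the higher side. On the lower side over 12 arrays they were TRIM14, USP18, IFITM1 and IRF1. IRF9 was at -0.20 ± 0.25 and ISG15 at -0.10 ± 0.93 there, and TRIM14 at -0.56 ± 0.26 (unadjusted p = 0.053, limma adjusted p = 1.00).

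The rest of the pathway gave 0 calls in any of the 5 comparisons, over 12 arrays or in replicates 2 and 3 with the block. For 4-OHT in PAX3-FKHR-ER in replicates 2 and 3, 3635 of all 8124 tested genes were positive. Of the 24 further interferon-stimulated genes tested, 18 were negative there, with a median of -0.21. CIITA, the master regulator of MHC class II genes, had the smallest p of them, at 73.5 and 62.8 without and 46.2 and 17.1 with 4-OHT (-0.89 ± 0.26, limma adjusted p = 0.176), followed by UBE2L6, the ISG15-conjugating enzyme (-0.40 ± 0.12, limma adjusted p = 0.22), and IRF2 (-0.65 ± 0.22, limma adjusted p = 0.265). In pK1 these 3 genes were also on the lower side in the same fit, at -0.41 for CIITA, -0.24 for UBE2L6 and -0.37 for IRF2, with limma adjusted p of 0.863 or more. CIITA read 55.9, 74.6 and 75.4 without and 34.6, 59 and 46.2 with 4-OHT there, lower in each pair, as was UBE2L6. Of 9 signal transducers and inhibitors 5 were negative, with a median of -0.06. SOCS1, which blocks the receptor kinases, was the one of smallest p and was on the higher side, at 91.1 and 46.8 without and 139.5 and 97.6 with 4-OHT (0.70 ± 0.22, limma adjusted p = 0.22). The 8 ligands and receptors split 4 to 4 with a median of -0.10, and the 6 nucleic acid sensors and adaptors split 3 to 3 with a median of 0.04.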

How the data were processed

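The authors deposited a table of linear MAS5 signal intensity for the 12 arrays. Per the submitters' processing notes, the tools were GCOS and MAS5. The 2% trimmed mean of each array was 150.0 within rounding, so the arrays had been scaled to one level, and their median signals ran from 50.4 to 62.8. No counts exist for arrays, so their number limits the precision.

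Signals were analysed as log2(signal + 16), which understates changes of dim genes. Control probe sets (68 of 22283) were left out, as was the dimmest 40% by mean signal (under 36.7), which left 13329 probe sets and 8124 genes. Of 22215 probe sets, 19065 carry 1 gene symbol, 1043 several and 2107 none. An update through Entrez identifiers altered 0 symbols. Signals of different probe sets were not compared with each other. Groups were compared with limma 3.58.1 in R 4.3.3 (group means, eBayes with trend, two-sided), adjusted by Benjamini-Hochberg over all probe sets at 0.05. The limma script was tested on simulated data. Tables and figures were made with Python 3.11.15, pandas 2.3.3 and matplotlib 3.10.9.

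The design text describes populations treated with or without 4-OHT, and arrays of the same construct and number deviated together from their group means (r = 0.85, 0.70 and 0.71 in PAX3-FKHR-ER and 0.79, 0.79 and 0.82 in pK1). Between the constructs, r of the same number was 0.15 to 0.69. Arrays of one construct and number were therefore taken as pairs. Fits with the pair as a block, or over replicates 2 and 3, are given beside the fit to 12 arrays. Comparisons between the constructs used the replicate number alone as the block, although it joins separate populations. They treated the arrays without and with 4-OHT of one population as independent. Their SE and p thus rest on more arrays than there are populations.

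The genes and lists were chosen with earlier results of these data known. For each comparison the rule named genes past the threshold, otherwise the 4 of smallest p each way over 12 arrays, and always IFIT1, ISG15, IRF9 and TRIM14. It also named up to 6 genes of one sign in all 3 pairs and up to 3 genes of smallest p in each other list. Genes described beyond it, to account for every gene of the list, were picked after their values were seen. Alternatives were other amounts added before the log, other filters, equal medians, quantile normalization, the mean over probe sets of a gene, eBayes without trend, fits to fewer groups or arrays, and each array left out. Leaving out both pK1 arrays of replicate 3 was chosen after seeing the data.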

Additional observations from a re-analysis of the deposited data

Results flagged for a closer look

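IFI6 moved in opposite directions with 4-OHT in the constructs. It was lower in 3 of 3 PAX3-FKHR-ER pairs, by 0.35 to 0.41, and higher in 3 of 3 pK1 pairs, by 0.21 to 0.34. Of all tested genes, 15.6% were lower in every PAX3-FKHR-ER pair and 12.7% higher in every pK1 pair. The share of genes with both patterns was not counted. In replicate 1 IFI6 was dim, at 24.9 and 15.7 in PAX3-FKHR-ER and 15.9 and 22.7 in pK1, without and with 4-OHT. Over 12 arrays the pK1 change was -0.37 without pK1 replicate 1 without 4-OHT and -0.15 without pK1 replicate 3 with 4-OHT. The difference of the changes was -0.65 ± 1.03 (SE) over 12 arrays, with a limma adjusted p of 1.00. With pairs as a block the unadjusted p was 0.0139 and the limma adjusted p 0.926, and in replicates 2 and 3 with the block the limma adjusted p was 0.425. The difference thus did not pass the threshold in these fits.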

How the results depend on the processing

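Each result was recomputed under 25 other settings, 12 of which left out 1 array. Of 1103 values of single genes 1040 kept their direction and side of the threshold, 61 took the other sign and 2 newly passed. Of 362 summary values, 346 stayed within their spread or 1.5 times their count and 16 did not. The cause of these shifts was not tested.

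In replicates 2 and 3 with the replicate block, 186 probe sets and 2 of the 30 genes were called for 4-OHT in PAX3-FKHR-ER, 7 probe sets for the difference of the changes, 1 for the constructs without 4-OHT and 21 with it. Without the block, replicates 2 and 3 gave 0 probe sets and 0 of the 30 genes for 4-OHT in PAX3-FKHR-ER, 0 for the difference and 1 and 13 for the constructs. Over 12 arrays the block changed no call. In replicates 2 and 3, without or with the block, the change in pK1 was 0.17 for IFIT1 and 0.015 for TRIM14, and the difference of IFIT1 between the constructs with 4-OHT was -0.91. With 1 added before the log, the difference of the changes of IFIT1 was 0.045, and with 64 its difference between the constructs with 4-OHT was -0.17. Without both pK1 arrays of replicate 3, a choice made after seeing the data that leaves unequal sets of replicate numbers, the difference of the changes of IFIT1 was 0.23, and with 4-OHT the constructs differed by -0.011 for ADAR and 0.78 for ISG15.

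With 1 array left out, the median of the 30 genes ran from -0.37 to -0.018 for 4-OHT in PAX3-FKHR-ER, from -0.53 to 0.19 in pK1 and from -0.47 to 0.47 for the difference. In PAX3-FKHR-ER IFI16 ran from -0.30 to 2.54 and ISG15 from -0.89 to 0.24. In pK1 SP100 ran from -0.39 to 0.96, ADAR from -0.029 to 0.21, IFI6 from -0.37 to 0.93, IFI16 from -0.51 to 1.25, IFITM2 from -1.08 to 0.11, TRIM21 from -0.45 to 0.087, IFIT1 from -1.43 to 0.83, ISG15 from -0.77 to 0.96, IRF9 from -0.32 to 0.081 and TRIM14 from -0.29 to 0.11. For the difference EIF2AK2 ran from -0.64 to 0.0090, USP18 from -0.87 to 0.048, IFIT1 from -1.45 to 0.81 and ISG15 from -1.22 to 0.52. Between the constructs without 4-OHT EIF2AK2 ran from -0.012 to 0.60, ISG15 from -0.31 to 1.12, IFI44 from -0.58 to 1.40 and IFIT1 from -0.50 to 0.86. With 4-OHT TRIM21 ran from -0.19 to 0.36, ADAR from -0.011 to 0.12, IFIT1 from -1.29 to 0.97 and ISG15 from -0.79 to 0.78.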
